A study of Caenorhabditis elegans with 2 samples.

Results

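The fatty acid metabolism genes of Caenorhabditis elegans were taken by name: every protein-coding gene in the Ensembl WBcel235 annotation whose symbol starts with fat-, elo-, acs-, acdh-, ech-, acox-, lbp- or maoc-. There were 78 of them among 19985 protein-coding genes. They fall into 4 classes by the step their family carries out: 16 synthesis genes (7 fat and 9 elo), 22 activation genes (acs), 31 breakdown genes (13 acdh, 10 ech, 7 acox and 1 maoc) and 9 binding genes (lbp). The data are a chromatin immunoprecipitation sequencing (ChIP-seq) map of the nuclear hormone receptor NHR-12 fused to eGFP, in which DNA bound by the tagged protein is recovered and sequenced. The worms were of strain OP318, which carries unc-119(ed3) III and the insertion wgIs318 with the tagged nhr-12; both replicates share this genotype, and no other genotype or treatment was included. Whole mixed-stage embryos of both sexes were used, so values are a mean over all cells of the embryo and no tissue can be told apart. There was 1 group with 2 biological replicates, and the labels name nhr-12 as the antibody target. A library without the tag is not analysed here, so the signal of these regions in such a library is not known.

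Fatty acids are lengthened by elongases (ELO) and given double bonds by desaturases (FAT), which together make the polyunsaturated and branched fatty acids of worm membranes. Acyl-CoA synthetases (ACS) join a fatty acid to coenzyme A before it can be stored, built into membranes or broken down. Breakdown by beta oxidation removes carbons in repeated rounds: an acyl-CoA dehydrogenase in mitochondria (ACDH) or an acyl-CoA oxidase in peroxisomes (ACOX) makes the first double bond, and an enoyl-CoA hydratase (ECH, MAOC) adds water to it. Fatty acid binding proteins (LBP) carry the insoluble lipids between these sites. Nuclear hormone receptors are a large family in worms, and several members are known to act on lipid genes.

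The value of a gene was the largest signal among candidate regions with their summit, the base of highest enrichment, in a start window that reaches 1000 bp before the gene start and 200 bp past it. The candidate lists are the authors' peaks and background, which are deliberately long: 28574 regions from the pooled reads and 30000 from each replicate. A candidate is thus not a called binding site, and 35.7% of all protein-coding genes had one in the pooled list. A much shorter list of 249 thresholded peaks holds the regions that passed the authors' own threshold, and 0.946% of all protein-coding genes had one of its summits in the start window. Signal is on the authors' scale, which the files do not explain, and its sizes are not compared across lists. A percentile is therefore given beside it, which is the place of the gene among all protein-coding genes with a candidate in the same list. The files give no read counts, so the depth behind each region is unknown. No test was made of any difference between classes, since genes of one map are not replicates and the families were chosen with results of these data known.

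Of the 78 genes, 2 had a thresholded peak (2.56%, beside 0.946% of protein-coding genes). These were acdh-7, an acyl-CoA dehydrogenase gene, and lbp-1, a fatty acid binding protein gene. The next largest, ech-5, had a pooled signal of 21.0 and was outside the thresholded list, whose lowest signal was 30.7; lbp-1, the member just inside, had 37.4. No fat, elo, acs, ech, acox or maoc gene had a thresholded peak in its start window. The bases around the summits of acdh-7 and lbp-1 are shown because these are the 2 regions past the threshold, and those of elo-2 and fat-3 because these are the 2 synthesis genes with a pooled candidate. They were read from WBcel235 (ce11) on the strand of the gene: acdh-7 from chrX:17217530-17217680 on the minus strand, lbp-1 from chrX:3259142-3259292 on the plus strand, elo-2 from chrIV:17468132-17468282 on the minus strand and fat-3 from chrIV:9803066-9803146 on the plus strand. Capitals mark CTGCGTCT in acdh-7 and TGATAA in lbp-1; none of the 5 motifs described further on occurs in the other two.
acdh-7: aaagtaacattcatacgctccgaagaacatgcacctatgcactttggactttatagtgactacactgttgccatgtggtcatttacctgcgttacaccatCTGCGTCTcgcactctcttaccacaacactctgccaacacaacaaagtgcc
lbp-1: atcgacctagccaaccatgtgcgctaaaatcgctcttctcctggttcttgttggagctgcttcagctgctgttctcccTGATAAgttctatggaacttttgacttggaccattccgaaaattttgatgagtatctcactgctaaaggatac
elo-2: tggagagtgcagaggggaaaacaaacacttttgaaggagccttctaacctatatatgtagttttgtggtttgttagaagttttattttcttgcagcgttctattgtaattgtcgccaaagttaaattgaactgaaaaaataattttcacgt
fat-3: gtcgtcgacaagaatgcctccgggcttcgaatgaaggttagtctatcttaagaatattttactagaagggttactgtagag

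The acdh-7 region, chrX:17217427-17217782, had a pooled signal of 45.3 and ranked 83 among the 28574 pooled candidates. Its signal was 23.7 in replicate 1 (rank 123) and 22.2 in replicate 2 (rank 68), so the gene stood at percentile 98.7 and 99.2. The summit lay 500 bp upstream of the acdh-7 start, between genes; the next protein-coding gene upstream was 5370 bp away. The nearest annotated start of any kind was that of a non-coding RNA, T25G12.15, at 119 bp. The shown bases hold CTGCGTCT once, with its middle 29 bp from the summit.

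The lbp-1 region, chrX:3259039-3259394, had a pooled signal of 37.4 and ranked 136. Replicate 1 gave 22.4 (rank 143, percentile 98.5) and replicate 2 gave 15.2 (rank 313, percentile 97.3). Here the summit was downstream of the start, at 75 bp, in a coding exon of lbp-1 itself; no other protein-coding start window held it. The 3 summits, pooled and in the 2 replicates, lay within the 69 to 75 bp after the start. Its neighbours lbp-2 and lbp-3 on the same chromosome had no pooled candidate in their windows, though the lbp-1 peak lay 1393 bp and 1845 bp from their starts.

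**Figure D1:**
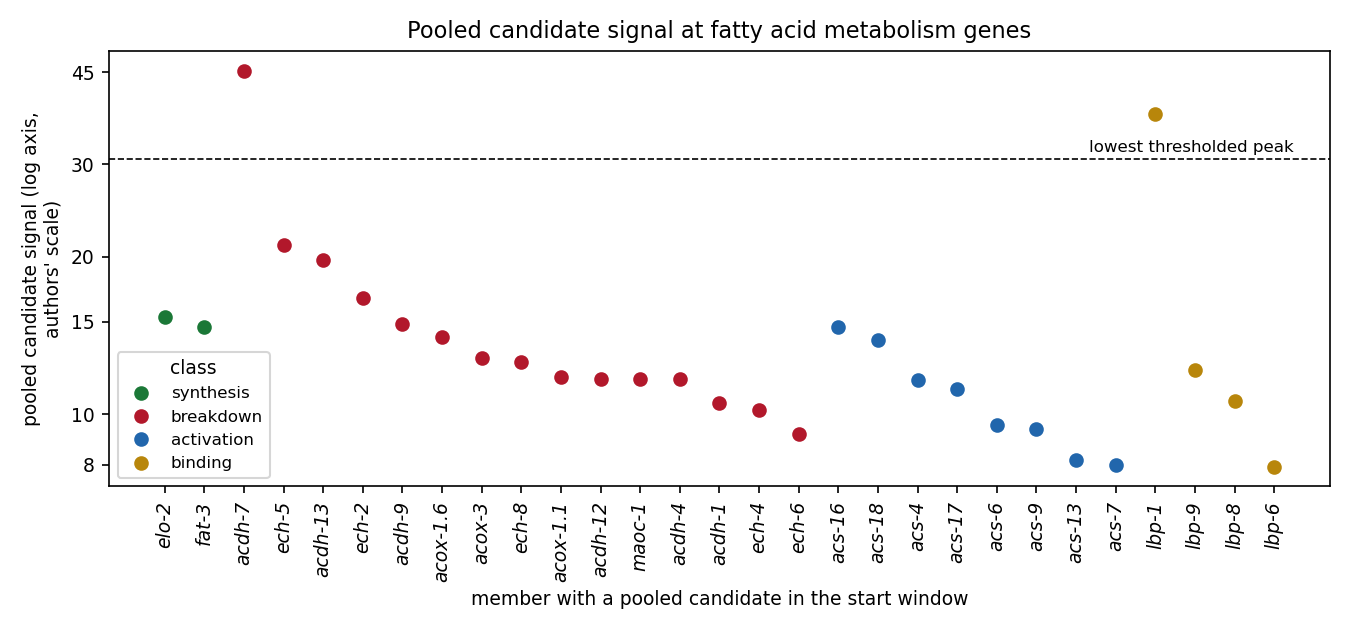
Each point is one of the 29 fatty acid genes with a pooled candidate in its start window, coloured by class, with the pooled signal on a log axis in the authors' scale. Only acdh-7 at 45.3 and lbp-1 at 37.4 lie above the dashed line, the lowest thresholded signal of 30.7; the other 27 points lie between 7.94 and 21.0.

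Across all 78 genes, 29 (37.2%) had a pooled candidate, against 35.7% of protein-coding genes. In replicate 1 the count was 32 (41%) beside 37% of protein-coding genes, and in replicate 2 it was also 32 (41%) beside 35.7%. As a whole the fatty acid genes were thus close to the background in each list. Their pooled signals ran from 7.94 to 45.3 with a median of 11.8, and those of all protein-coding genes with a candidate from 7.77 to 113 with a median of 11.1. A candidate in both replicates was found for 17 (21.8%) beside 17.5% of protein-coding genes. All 3 lists held a candidate for 15 (19.2%) beside 15.2%. Neither count requires the regions of a gene to overlap between lists. In none of the 3 lists did 29 members (37.2%) have a candidate, beside 42.1% of protein-coding genes. Signals at or above percentile 50 were held by 20 members in the pooled list (25.6%, beside 17.9%), 18 in replicate 1 (23.1%, beside 18.5%) and 12 in replicate 2 (15.4%, beside 17.8%).

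Synthesis and breakdown genes stood furthest apart in the pooled list. Of the 16 synthesis genes, 2 (12.5%) had a pooled candidate, and of the 31 breakdown genes, 15 (48.4%); the background of 35.7% lay between them. Replicate 1 gave 2 synthesis genes (12.5%) and 13 breakdown genes (41.9%). Replicate 2 gave 7 synthesis genes (43.8%) and 15 breakdown genes (48.4%). The share of synthesis minus that of breakdown was -35.9 percentage points in the pooled list, -29.4 in replicate 1 and -4.64 in replicate 2. The 2 replicate values share a sign and differ widely (SD 17.5 percentage points, n = 2), and the gap of replicate 2 is less than 1 of the 16 synthesis genes. The gap in the pooled list is therefore not matched by replicate 2. Restricted to signals at or above percentile 50, synthesis had 2 genes (12.5%) and breakdown 12 (38.7%) in the pooled list, beside 17.9% of protein-coding genes. Replicate 1 gave 2 (12.5%) and 8 (25.8%), beside 18.5%. In replicate 2 the shares were level, with 3 (18.8%) and 6 (19.4%), beside 17.8%. Candidates in both replicates were found for 1 synthesis gene (6.25%) and 8 breakdown genes (25.8%), beside 17.5% of protein-coding genes. Of these, the regions of the 2 replicates did not overlap at the breakdown genes ech-4 and ech-8.

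The strength of the candidates did not order the classes the same way in every list. Over genes with a candidate, the median percentile was 79.4 for synthesis, from 2 genes, and 64.4 for breakdown in the pooled list. It was 61.6 and 65.1 in replicate 1, and 49.2 and 44.4 in replicate 2. The difference of synthesis minus breakdown was thus 15.1 points in the pooled list, -3.56 in replicate 1 and 4.81 in replicate 2 (SD 5.91 points between replicates, n = 2), and the replicates differ in sign. The classes also differ in where their genes lie. On chromosome IV lie 11 of the 16 synthesis genes, of which 2 had a pooled candidate, and 6 breakdown genes, of which 5 had one; of all protein-coding genes of that chromosome 34.6% did. The median distance upstream to the next protein-coding gene was 2007 bp for synthesis and 635 bp for breakdown, beside 937 bp for all protein-coding genes. The median GC content of the start window was 33.4% and 34.1%, beside 34.9%. The part of these features in the gap was not tested.

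**Figure D2:**
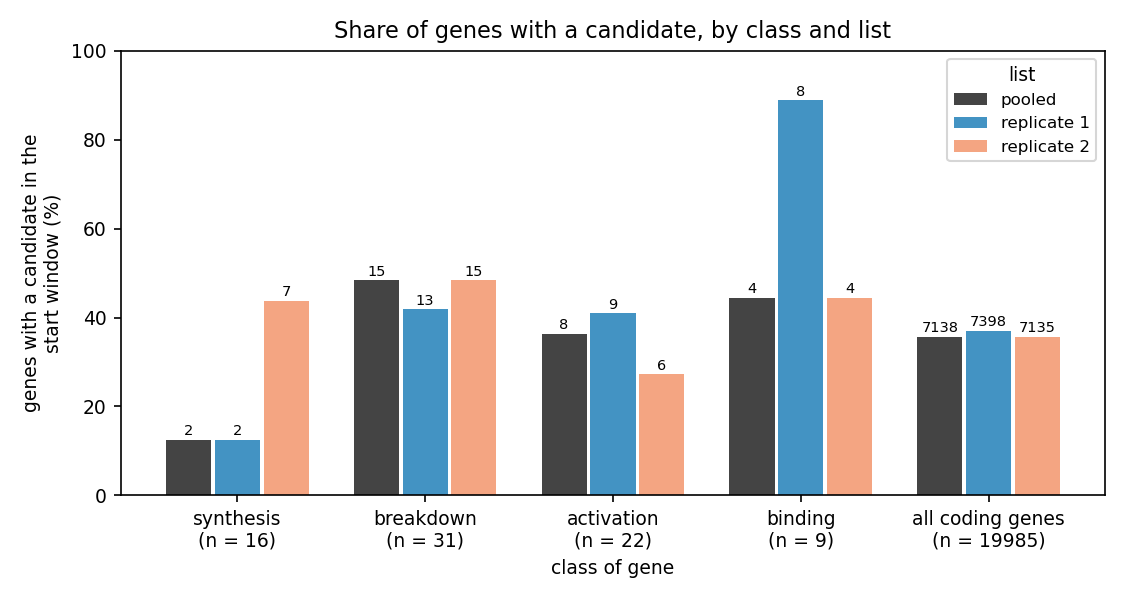
Bars give the percentage of genes with a candidate summit in the start window, by class and for all 19985 protein-coding genes, in the pooled list, replicate 1 and replicate 2; the number on a bar is the count of genes. Synthesis bars are low in the pooled list and replicate 1 (2 of 16 each) and near the breakdown bar in replicate 2 (7 of 16 beside 15 of 31).

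Among the desaturases, fat-3, which introduces a double bond near the carboxyl end on the way to the long polyunsaturated fatty acids, was the only one with a pooled candidate. Its pooled signal was 14.7 (percentile 78.0), replicate 1 had none in the window, and replicate 2 had 8.60 (percentile 80.7). The summit lay 83 bp after the start in an intron of fat-3, in chrIV:9802928-9803283. The desaturase gene fat-2, which acts on oleic acid, had a candidate in replicate 2 alone (6.67, percentile 60.3, 45 bp upstream), and so had fat-4, which acts after fat-3 in the same route (6.36, percentile 55.8, 864 bp upstream). One of the stearoyl-CoA desaturases, fat-7, had a candidate in replicate 1 alone (7.80, percentile 58.2, 626 bp upstream). The omega-3 desaturase gene fat-1 and the other stearoyl- and palmitoyl-CoA desaturase genes, fat-6 and fat-5, had none in any of the 3 lists. So each of the 4 desaturase genes with any candidate lacked one in at least 1 replicate.

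Among the elongases, elo-2, which lengthens palmitic acid, was the only gene with a candidate in the pooled list and in both replicates. The values were 15.3 pooled (percentile 80.8), 8.32 in replicate 1 (percentile 64.9) and 5.99 in replicate 2 (percentile 49.2), with the pooled summit 799 bp upstream, in chrIV:17468029-17468384. The regions of the 2 replicates overlapped there. In replicate 2 alone, elo-7 had a signal of 5.50 (percentile 39.4), elo-1, which acts on polyunsaturated fatty acids, 4.29 (percentile 10.1), and elo-4 4.01 (percentile 2.22). These 3 lie below percentile 50 of that list. The genes elo-5 and elo-6, which are needed for branched-chain fatty acids, had none, and nor had elo-3, elo-8 and elo-9. Of the 7 synthesis genes found in replicate 2, 5 (71.4%) were absent from the pooled list, beside 36.1% of the protein-coding genes found in that replicate.

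The acyl-CoA synthetase genes were near the background in the pooled list and in replicate 1, with 8 of 22 (36.4%) and 9 of 22 (40.9%), and below it in replicate 2 with 6 of 22 (27.3%). The largest was acs-16, with 14.7 pooled (percentile 78.1), 5.82 in replicate 1 (percentile 23.0) and 7.08 in replicate 2 (percentile 65.7), and the 3 summits lay 13 to 18 bp upstream of its start. The summit at acs-18 (13.8, percentile 73.6) lay 189 bp after the start in an intron; its region did not overlap the one of replicate 1 (5.15, percentile 7.67), and replicate 2 had none. The gene acs-4 had 11.6 pooled (percentile 55.5), 7.38 in replicate 1 and 5.09 in replicate 2. Both acs-9 (9.36, with 9.72 and 5.23 in the replicates) and acs-13 (8.16, with 5.01 and 4.14) also had a candidate in all 3 lists. Their pooled signals lay below the pooled median of all protein-coding genes, and at each the 2 replicate regions did not overlap. Of the 22 genes, 11 (50%) had none in any of the 3 lists, beside 42.1% of protein-coding genes. Among these was acs-2, a mitochondrial synthetase known for its rise on fasting.

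Of the breakdown genes other than acdh-7, ech-5 had the largest candidate. The signal at ech-5 was 21.0 pooled (rank 886, percentile 92.9), 12.9 in replicate 1 (percentile 91.3) and 9.37 in replicate 2 (percentile 85.8). Its summit, 655 bp upstream, fell in a coding exon of the neighbouring gene F56B3.11, whose start was closer, and the start window of skr-18 held it as well. The acyl-CoA dehydrogenase gene acdh-13 had 19.7 pooled (percentile 91.3), 11.8 in replicate 1 (percentile 88.3) and 5.93 in replicate 2 (percentile 48.0), 227 bp upstream in a window shared with mesp-1. At ech-2 the values were 16.7 pooled (percentile 85.2) and 8.82 in replicate 1 (percentile 69.9), with none in replicate 2, and the summit lay 988 bp upstream within the non-coding RNA gene F38H4.15. At acdh-9 they were 14.8 pooled (percentile 78.8) and 8.34 in replicate 1 (percentile 65.1), again with none in replicate 2; the start of F28A10.13 was closer to that summit. These 4 genes thus ranked higher in replicate 1 than in replicate 2, or were in replicate 1 alone.

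Of the peroxisomal acyl-CoA oxidases, acox-1.6 had 14.1 pooled (percentile 74.7), 8.44 in replicate 1 (percentile 66.1) and 4.07 in replicate 2 (percentile 3.75). The values of acox-3 were 12.8 (percentile 66.1), 6.17 (percentile 30.5) and 4.41 (percentile 13.8), and its 3 summits lay 252 to 261 bp upstream. In contrast, acox-1.1, whose enzyme takes part in making ascaroside pheromones, had 11.8 pooled (percentile 57.4) and 9.44 in replicate 2 (percentile 86.2), with none in replicate 1. The genes acdh-12 and maoc-1 stand head to head 635 bp apart and share 1 pooled candidate, with a signal of 11.7 (percentile 56.1), which lay 322 bp from one start and 313 bp from the other. Neither had a candidate in either replicate, so this region counts for 2 genes in the pooled breakdown count and for 0 in the replicates. Among the remaining breakdown genes with a candidate in all 3 lists, ech-8 had 12.6 pooled, 6.04 in replicate 1 and 5.75 in replicate 2. The values were 11.6, 6.21 and 7.08 at acdh-4 and 10.2, 6.25 and 4.01 at ech-4. At ech-8 and ech-4 the regions of the 2 replicates did not overlap. The genes acdh-1 and ech-6 serve the propionate shunt. Both had a candidate in the pooled list (10.5 and 9.16) and in replicate 2, and none in replicate 1. No list held a candidate for 9 breakdown genes (29%), beside 42.1% of protein-coding genes. These were acdh-2, acdh-8, acdh-10, acdh-11, acox-1.2, acox-1.3, acox-1.5, ech-7 and ech-9.

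Among the lipid binding protein genes, a candidate was found for 8 of 9 (88.9%) in replicate 1, beside 37% of protein-coding genes. In replicate 2 it was 4 of 9 (44.4%, beside 35.7%), and in the pooled list also 4 of 9 (44.4%, beside 35.7%). Replicate 1 signals other than that of lbp-1 included 12.8 at lbp-9 (percentile 91.0), 10.4 at lbp-6 (percentile 82.0) and 9.43 at lbp-2 (percentile 75.4), and none of these had a candidate in replicate 2. The pooled signals of lbp-9 and lbp-6 were 12.1 (percentile 60.5) and 7.94 (percentile 3.10). The gene lbp-8, whose product carries lipid signals from lysosomes to the nucleus, had 10.6 pooled (percentile 44.8), 5.73 in replicate 1 and 5.43 in replicate 2. Its 2 replicate regions did not overlap. Both lbp-4 and lbp-5 had low candidates in the 2 replicates and none in the pooled list, and lbp-7 had none anywhere.

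The 17 genes with a candidate in both replicates showed how well single values repeat. Their best regions overlapped in 10 of 17 (58.8%), beside 2404 of 3507 protein-coding genes (68.5%). Counted over all genes, with or without candidates, this was 10 of 78 members beside 2404 of 19985 protein-coding genes, which are close shares. Those 10 were acdh-4, acdh-7, acdh-13, acox-1.6, acox-3, acs-4, acs-16, ech-5, elo-2 and lbp-1. Spearman's rho between the 2 signals was 0.49 over the 17 genes and 0.25 over the 3507, a description across genes that share the same libraries. Besides acdh-7 and lbp-1, only ech-5 lay at or above percentile 75 in both replicates. A further 15 members (19.2%) had a candidate in replicate 1 only, beside 19.5% of protein-coding genes, and 15 in replicate 2 only, beside 18.2%.

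**Figure D3:**
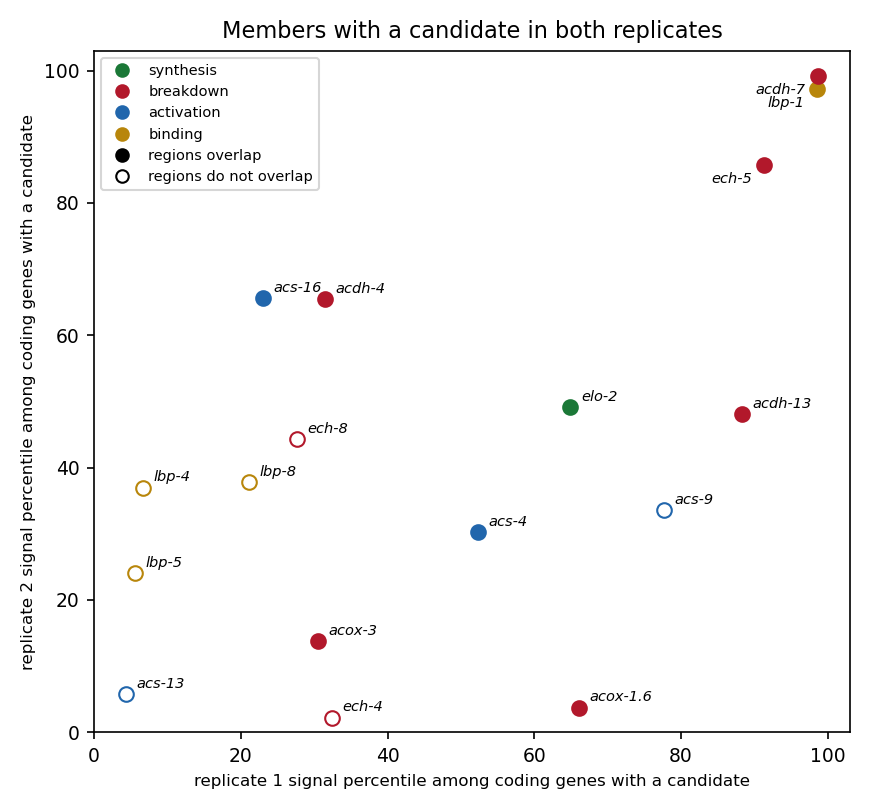
Each of the 17 fatty acid genes with a candidate in both replicates is placed by its signal percentile in replicate 1 (horizontal) and replicate 2 (vertical) among protein-coding genes with a candidate in that list; filled points mark genes whose 2 regions overlap. The genes acdh-7, lbp-1 and ech-5 sit at the upper right, none below percentile 85.8 in either replicate, while acox-1.6 is at 66.1 and 3.75.

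In position the candidates of fatty acid genes were close to those of all genes. Of the 29 pooled summits, 23 (79.3%) lay upstream of the start, beside 83% of protein-coding genes with a candidate, and 16 (55.2%) within 500 bp upstream, beside 47.4%. The median position was -277 bp for members and -328 bp for all. The gene's own start was the nearest protein-coding start for 25 (86.2%), beside 81.2%, and the exceptions were ech-5, acdh-9, ech-4 and acdh-12. Breakdown summits lay upstream in 14 of 15 genes, 10 of them within 500 bp. Those of the lbp genes lay upstream in 1 of 4 and otherwise 75 to 98 bp after the start. By annotation, 19 of the 29 summits were intergenic, 4 in introns, 3 in coding exons, 1 in the 3′ UTR of a neighbouring gene, 1 in a non-coding RNA gene and 1 in a pseudogene.

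Beyond the start window, 51 of 78 members (65.4%) held a pooled candidate summit in the gene body, beside 49.7% of protein-coding genes. The median gene length was 2476 bp for members and 2026 bp for all. Most synthesis genes and most breakdown genes held such a summit. The synthesis genes were elo-1, elo-2, elo-3, elo-4, elo-5, elo-9, fat-2, fat-3, fat-4, fat-5 and fat-6. The pooled gap between these 2 classes in the start window was thus not seen in the gene body. A thresholded peak summit lay in the body of 1 member, lbp-1 (1.28%), beside 0.38%. Within 5000 bp of the start on either side, 10 members (12.8%) had a thresholded peak summit, beside 2.87%. Besides acdh-7, lbp-1, lbp-2 and lbp-3, these were acdh-10 (2702 bp), acox-1.6 (2742 bp), acs-19 (3058 bp), acdh-5 (3102 bp), acdh-2 (3893 bp) and acs-14 (4537 bp). The 3 lbp genes share the peak in lbp-1, and acdh-10 shares that of acdh-7, so the 10 genes are not separate cases, and these peaks were not assigned to the genes.

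**Figure D4:**
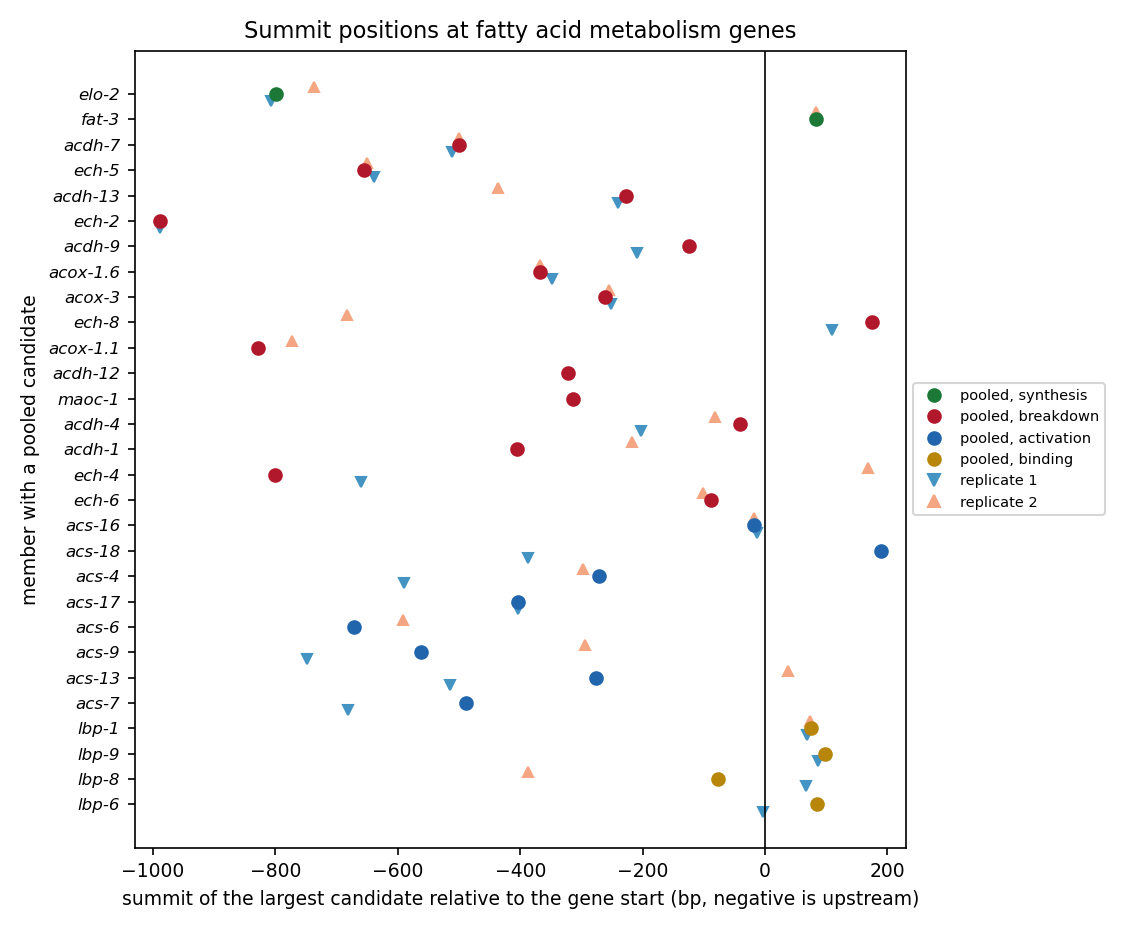
For each of the 29 fatty acid genes with a pooled candidate, the circle gives the pooled summit and the triangles the replicate summits as distance from the gene start in bp, with upstream negative. The summits coincide closely at acdh-7 (500 to 511 bp upstream) and lbp-1 (69 to 75 bp downstream) and lie far apart at ech-8, where the pooled summit is 174 bp downstream and that of replicate 2 is 683 bp upstream.

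The bases around the summits were searched on both strands for 5 motifs: AGGTCA, a core site of nuclear receptors, TGATAA, a site of GATA factors, CACGTG, an E-box, TCACNCCAC, a sterol regulatory element, and CTGCGTCT, which was chosen because earlier results of these data showed it. No motif contains another. In the 28 regions of 201 bp centred on the members' pooled summits, CTGCGTCT occurred in 5 (17.9%), beside 2.39% of all 28574 pooled candidates. The 2 sets are unlike: the 28 summits all lie in start windows, while the 28574 candidates lie anywhere in the genome. Earlier results showed CTGCGTCT as a promoter element, and its share among all candidates in start windows is not given here. For TGATAA the count was 5 (17.9%, beside 16.7%), for AGGTCA 2 (7.14%, beside 5.7%; acs-16 and lbp-8), for CACGTG 1 (3.57%, beside 4.33%) and for TCACNCCAC 0 (beside 0.455%). The 5 regions with CTGCGTCT lie in the start windows of breakdown genes: acdh-7, acdh-9, acox-3, ech-4 and ech-6. Of the 29 members with a pooled candidate, 15 are breakdown genes and 2 are synthesis genes, with acdh-12 and maoc-1 sharing a region. The summit at acdh-9 is 124 bp from the acdh-9 start but 85 bp from that of F28A10.13. CTGCGTCT lies on the strand of the gene in 4 of the 5, with its middle 116 to 471 bp upstream of the start. At acdh-9 there are 2 copies. The ech-4 copy is on the opposite strand, 813 bp upstream and nearer to the gene R06F6.8. The 48 bases around each copy are shown, with the motif in capitals and on the strand of the gene, so that the flanks can be compared; they lie at chrX:17217553-17217600 for acdh-7, chrII:848696-848743 and chrII:848730-848777 for acdh-9, chrIV:6248640-6248687 for acox-3, chrII:10820195-10820242 for ech-4 and chrIII:9752988-9753035 for ech-6.
acdh-7: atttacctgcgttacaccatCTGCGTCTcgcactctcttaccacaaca
acdh-9, near copy: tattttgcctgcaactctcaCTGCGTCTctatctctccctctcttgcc
acdh-9, far copy: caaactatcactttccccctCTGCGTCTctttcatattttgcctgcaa
acox-3: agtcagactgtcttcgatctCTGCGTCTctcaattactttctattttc
ech-4: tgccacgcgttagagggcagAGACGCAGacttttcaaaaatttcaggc
ech-6: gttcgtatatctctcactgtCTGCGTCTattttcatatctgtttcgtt

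The members with this match ranged widely in signal: acdh-7 had the largest pooled signal of all 78 genes, whereas ech-6 at percentile 24.2 and ech-4 at percentile 38.8 were below percentile 50. In the promoters themselves, taken as 250 bp before to 50 bp after the start whether or not a candidate was present, CTGCGTCT occurred in 7 of 78 (8.97%), beside 3.54% of all protein-coding genes. These were 5 of 31 breakdown genes (acdh-9, acdh-11, acox-3, ech-3 and ech-6), 2 of 16 synthesis genes (elo-6 and fat-1), and 0 of 22 acs and 0 of 9 lbp genes. The promoters of acdh-11, elo-6 and fat-1 thus hold the letters while their genes had no candidate in any list. TCACNCCAC was found in 2 promoters (2.56%, beside 0.54%), those of elo-5 and fat-5. TGATAA was found in 32 (41%, beside 30.2%), AGGTCA in 6 (7.69%, beside 8.27%) and CACGTG in 6 (7.69%, beside 5.81%).

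Other genes of lipid metabolism were described from 8 lists with 111 matched genes, none of them members. The lists were written by hand with earlier results of these data known, and they are not a complete set. A pooled candidate was found for 54 (48.6%), beside 35.7% of protein-coding genes; replicate 1 gave 50 (45%, beside 37%) and replicate 2 gave 58 (52.3%, beside 35.7%). In both replicates 30 (27%) had one, beside 17.5%. Thresholded peaks were found for 2 of the 111 (1.8%), beside 0.946%. One was at dif-1, which encodes a carnitine-acylcarnitine carrier of the mitochondrial membrane, with signals of 59.6 pooled (rank 28), 33.8 in replicate 1 (rank 40) and 26.9 in replicate 2 (rank 38). It lies 414 bp upstream of dif-1 in the 3′ UTR of the neighbouring F49E8.6, at chrIV:7553244-7553599. The other was at mlcd-1, which encodes malonyl-CoA decarboxylase, with 51.5 pooled (rank 51), 31.1 in replicate 1 (rank 56) and 16.9 in replicate 2 (rank 204). It lies at chrIII:4568557-4568912, 605 bp upstream of mlcd-1 but 62 bp from the start of idhg-1, so which of the 2 genes it belongs to cannot be told apart.

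The 5 genes with the next largest pooled signals were acl-5, an acyltransferase gene (23.9), hach-1, an acyl-CoA hydrolase gene (23.7, with nmad-1 closer), acaa-2, a thiolase gene (21.7), mboa-2, an acyltransferase gene (19.4), and lipl-4, a lysosomal lipase gene (18.95, with the summit in K04A8.20). All 5 had a candidate in both replicates. By list, the pooled shares stand beside 35.7% of protein-coding genes. Candidates were found for 2 of 8 genes of de novo synthesis (25%), 13 of 25 of triglyceride and phospholipid synthesis (52%) and 5 of 12 of lipolysis (41.7%). The carnitine shuttle had 3 of 7 (42.9%), and the list headed other steps of beta oxidation 8 of 17 (47.1%). Peroxisome import had 12 of 16 (75%), lipid regulators 10 of 20 (50%) and vitellogenins 1 of 6 (16.7%). The beta oxidation list is broad. It also holds mlcd-1 and genes of propionate and branched-chain amino acid breakdown, among them pcca-1, mmcm-1, hphd-1 and ivd-1. For peroxisome import, replicate 1 gave 6 of 16 (37.5%, beside 37%) and replicate 2 gave 9 (56.2%, beside 35.7%). A candidate in both was found for 3 (18.8%, beside 17.5%). For the beta oxidation list the replicates gave 9 of 17 (52.9%) and 11 (64.7%), and 7 had a candidate in both (41.2%).

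**Figure D5:**
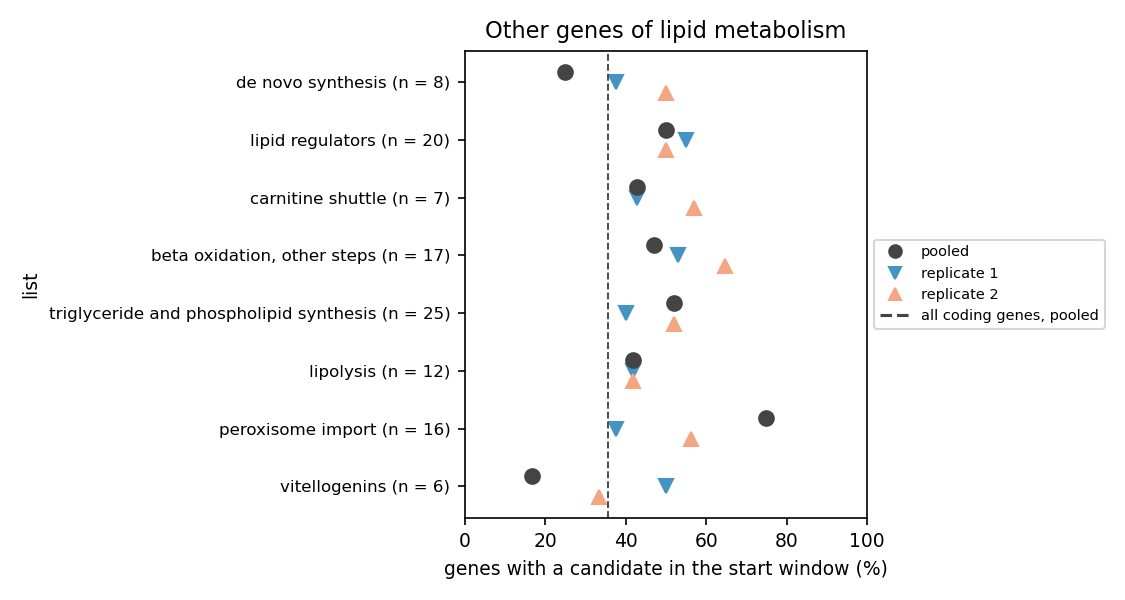
Points give the percentage of genes with a candidate in the start window for 8 further lists of lipid genes, in the pooled list, replicate 1 and replicate 2; the dashed line is the pooled value of all protein-coding genes, 35.7%. Peroxisome import is at 75% in the pooled list and at 37.5% and 56.2% in the replicates, and de novo synthesis is at 25%, 37.5% and 50%.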

How the data were processed

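ChIP-seq of eGFP-tagged NHR-12 was done in 2 biological replicates of whole embryos, with fragments of 150 to 350 bp per the labels. The authors deposited region lists in narrowPeak form on ce11 (WBcel235): thresholded peaks, candidates (peaks and background) from pooled reads and candidates for each replicate. The deposited signal of a region is the authors' value, with a scale that is not given in the sources used here, as are aligner and peak caller. The deposited −log10 q values reach a ceiling in each list and were used only in an alternative; those of 673 pooled candidates were at least 1. The ce10 lists and the control were not used here.

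Genes and starts came from Ensembl release 115. A candidate was assigned to every gene whose start window (1000 bp upstream to 200 bp downstream) held its summit, and a gene kept its largest signal. Percentiles were taken within each list. Scripts used Python 3.11.15, NumPy 2.4.6, SciPy 1.17.1 and matplotlib 3.10.9, and assignment was tested on simulated regions. Members, gene lists and motifs were chosen with earlier results of these data known. Of 113 lipid gene names, 2 (etfa-1 and acl-10) matched no gene. Genes were named by rule: those with a thresholded peak, the 15 largest pooled signals, every fat and elo gene, the largest of each family, those with a candidate in all 3 candidate lists, those next to the threshold, and of other lipid genes those with a peak and the next 5. Others are named where a short count is spelled out, after their values were seen. Alternatives were other windows, all transcript starts, overlap in place of summits, nearest gene only, a q threshold, single replicates, other classes and chromosome IV apart. Whether the replicates came from separate cultures is not given beyond the label biological.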

Additional observations from a re-analysis of the deposited data

How the results depend on the processing

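Of 44 alternative values, 29 stayed close to the reported one, that is, within 1.5 times for a count and within the SD between replicates for a difference (17.5 percentage points for shares and 5.91 points for percentiles). That SD is wide, from 2 replicates: share differences of -20.4 with all transcript starts and -22.1 with acs genes as synthesis count as close to -35.9. Members with a pooled candidate numbered 49 with a window of 2000 bp upstream to 500 bp downstream (62.8%, beside 56.2% of protein-coding genes) and 2 with a −log10 q of at least 1 (2.56%, beside 2%). Members with a candidate in both replicates numbered 7 with 500 bp upstream to 100 bp downstream (8.97%, beside 7.98%). They numbered 39 with the wider window (50%, beside 38.1%) and 2 with the q threshold (2.56%, beside 1.08%). In the stronger part of the thresholded list, 1 member had a peak, and the share of all protein-coding genes there is not given. The share difference of synthesis minus breakdown was -3.23 percentage points with the q threshold and ran from -29.4 to -4.64 leaving out a replicate. It was -65.2 on chromosome IV alone and -40 off chromosome IV, both chosen after seeing the data. The median percentile difference was 7.84 with any overlap and 23.3 with acs genes as breakdown. It reversed to -4.59 with the wider window and to -11.02 with acs genes as synthesis, and ran from -3.56 to 4.81 leaving out a replicate; the cause was not tested. With 2 synthesis genes in the pooled list, that median rests on few values. No paired analysis was possible because there is 1 group. Depth is unknown, so a missing candidate is not shown to be an absence of binding.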

Other observations

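After lbp-1, the largest pooled candidate in the body of a member was at ech-1.2, a homologue of the mitochondrial trifunctional enzyme, with a pooled signal of 30.02, just below the lowest thresholded signal of 30.7. Among the pooled summits of the other lipid genes, 3 of 54 regions of 201 bp held CTGCGTCT (5.56%, beside 2.39% of all pooled candidates). These were the regions of nhr-13, dif-1 and acaa-2. Here too the 54 summits lie in start windows, while all pooled candidates lie anywhere in the genome.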
